A study of Drosophila melanogaster with 2 samples.

Results

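The genes for the COP9 signalosome, *CSN1b*, *CSN2*, *CSN3*, *CSN4*, *CSN5*, *CSN6*, *CSN7* and *CSN8*, were followed in the indirect flight muscles of *Drosophila* after knockdown (KD) of *blistered* (*bs*), the SRF ortholog. They were chosen as the named subunits of this complex, and all 8 were found among the 13931 genes of the deposited table, which are listed by FlyBase identifier; *CSN2* was matched through its other name, *alien*. The *bs* KD flies carried the *1151-Gal4* driver together with the RNAi transgene KK108659 against *bs* (genotype 1151>bs[RNAi KK108659]). Control flies carried that driver alone, from a cross with w1118 (genotype 1151/+). The driver is active in myoblasts, so RNAi began in the precursors of the muscle and not in the mature fiber, and the control cross lacked any RNAi transgene. Each genotype was represented by 1 library of polyadenylated RNA, made from the pooled flight muscles of 4 females, which were 3 days old and had been kept at 29°C.

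The COP9 signalosome is a protease complex that removes the ubiquitin-like protein NEDD8 from cullins, the scaffolds of the largest family of ubiquitin ligases, and so sets how long these ligases stay active. Its subunits are relatives of the lid of the proteasome, which removes ubiquitin from proteins about to be degraded, and of part of the translation initiation factor eIF3. The shared core of these complexes consists of subunits with a PCI domain, which build the scaffold, and a pair of subunits with an MPN domain; eIF3 also has subunits with neither. In the COP9 signalosome this pair is CSN5, the metalloprotease that cuts NEDD8 from cullins, and CSN6, its partner without catalytic activity.

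The *bs* KD library held 19767477 estimated reads and the control library 20955053. Levels are given in TPM, the abundance of a transcript scaled to a fixed library total and corrected for gene length, and changes as log2 ratios of *bs* KD to control after adding 1 TPM to each, a scale that understates the change of genes with low levels. Genes that reached 1 TPM in either library were called detected, and there were 6384 of these. Their median log2 change was 0.07. The median of the 1804 genes at 10 TPM or above in each library, taken with no TPM added, was 0.13. Group medians are also given against this shift. The targeted gene *bs* stood at 1.80 TPM in *bs* KD and 2.75 TPM in the control, a ratio of 0.656 (95% counting interval 0.503 to 0.852). The transgene is directed at *bs-RA* and *bs-RC* and spares *bs-RB*, which a level for the whole gene does not tell apart. *Act88F*, the flight muscle actin gene, stood at 7471 TPM in *bs* KD and 33116 TPM in the control. All 11 flight muscle markers were detected, and *Act88F* and *salm*, a regulator of flight muscle fate, were lower by at least 2-fold (*salm* at 6.31 TPM in *bs* KD and 16.8 TPM in the control). Of the 11, 6 had a higher value in *bs* KD and 5 a lower one, with a median log2 change of 0.01. Of 35 markers of other cells 34 were found and 19 were detected. In *bs* KD 1 of these was at least 2-fold higher and 6 at least 2-fold lower. Among all detected genes 9.38% were higher and 6.05% lower by that size. Tracheal markers summed to 8.76 TPM in *bs* KD and 38.4 TPM in the control, but they differed unevenly. Of the 5, *verm*, *serp* and *Gasp* were lower by at least 2-fold. The ratio was 0.774 (0.566 to 1.06) for *btl*, an interval that includes no difference, and 0.643 (0.490 to 0.831) for *trh*. Of 5 ovary markers *grk* alone was detected (17.6 TPM in *bs* KD and 12.2 TPM in the control), with *osk* and *bam* at 0 in both. The part of these other cells in the values below was not tested. No difference could be checked against replicates, since each genotype had 1 library. Intervals come from estimated reads, cover counting error only, and leave out variation between flies and between dissections. In a dissected tissue, fewer cells of a type and less RNA per cell cannot be told apart.

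All 8 genes were detected, at low to moderate levels, and 7 of 8 had a higher value in *bs* KD. Of all 6384 detected genes, 3520 had a higher value. The difference was uneven across the complex. *CSN7* and *CSN8* were higher by 2-fold or more, *CSN2* and *CSN6* were near that size, and *CSN1b*, *CSN4* and *CSN5* were closer to the control, while *CSN3* was below it. The count of 2 of 8 (25%) compares with 9.38% of all detected genes past that size in the same direction. None of the 8 was lower by 2-fold, against 6.05% of all detected genes. The median log2 change of the 8 genes was 0.70, or 0.57 relative to the shift.

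The catalytic pair was split. *CSN5*, the gene for the protease itself, stood at 5.97 TPM in *bs* KD and 5.0 TPM in the control, a ratio of 1.19 with an interval of 0.905 to 1.57 that includes no difference. *CSN6*, its MPN partner, stood at 14.3 TPM in *bs* KD and 7.13 TPM in the control, a ratio of 2.01 (1.64 to 2.47). On the log2 scale these changes were 0.22 for *CSN5* and 0.92 for *CSN6*. The catalytic subunit was thus among the genes nearest to the control, and its MPN partner was not.

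Of the 6 PCI genes, *CSN7* had the largest difference on the log2 scale. It stood at 35.1 TPM in *bs* KD and 13.7 TPM in the control, from 697 and 270 estimated reads, a ratio of 2.56 (2.22 to 2.96) and a log2 change of 1.30. *CSN8* stood at 8.46 TPM in *bs* KD and 3.07 TPM in the control, a ratio of 2.76 and a log2 change of 1.22. Its values rest on 83.8 and 30.1 estimated reads, the fewest in the control among the 8 genes, and its interval, 1.81 to 4.37, was the widest. These 2 genes encode parts of the PCI scaffold and have no catalytic role of their own.

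*CSN2* (*alien*), whose product contacts the cullin in the human complex, stood at 15.2 TPM in *bs* KD and 7.22 TPM in the control. The ratio of these TPM values was 2.10 (1.76 to 2.51), but with 1 TPM added to both the log2 change was 0.98, just under the size used to count genes. *CSN6* lay next below it at 0.92, and *CSN8*, at 1.22, next above. How *CSN2* and *CSN6* are counted therefore turns on the setting. With no TPM added both passed, for 4 of 8 genes, as did 14.9% of all detected genes. With 0.1 TPM added *CSN2* passed at 1.06, for 3 of 8 genes (14.2% of all detected genes), and it also passed at 1.05 in read counts scaled to library size without a correction for length, again for 3 of 8 (10.7%). With 5 TPM added *CSN7* passed and *CSN8*, at 0.74, did not, for 1 of 8 (4.1%).

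The other PCI genes differed less. *CSN1b* stood at 7.43 TPM in *bs* KD and 5.06 TPM in the control, a ratio of 1.47 (1.20 to 1.81). *CSN4* stood at 20.6 TPM in *bs* KD and 15.6 TPM in the control, a ratio of 1.32 (1.16 to 1.51). *CSN3* stood at 3.87 TPM in *bs* KD and 4.44 TPM in the control, and its ratio of 0.872 has an interval, 0.673 to 1.14, that includes no difference. The intervals of *CSN1b* and *CSN4* left out 1, and both changes, 0.48 and 0.38 on the log2 scale, were under 1.5-fold. The PCI genes thus covered the whole range of the complex, from −0.16 to 1.30 with a median of 0.73, and the MPN genes lay inside it.

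**Figure D1:**
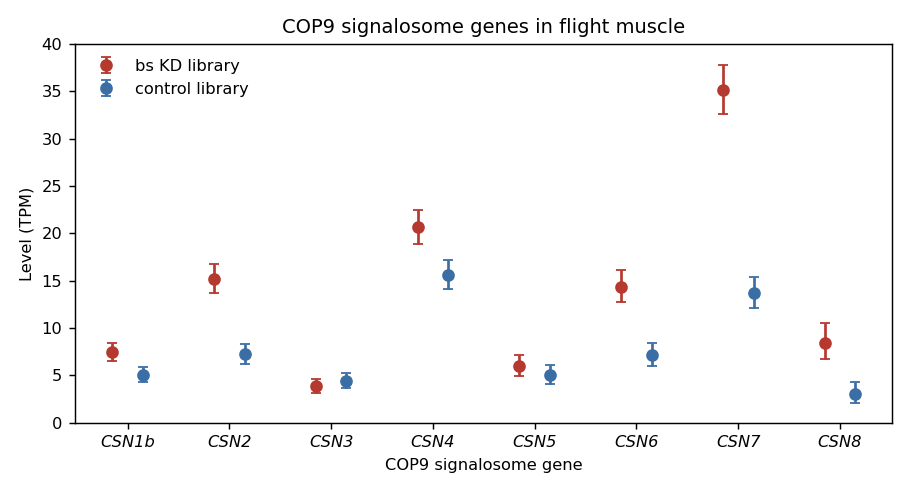
Level of each COP9 signalosome gene (vertical axis, TPM) in the *bs* KD library (red, left of each pair) and the control library (blue, right). Bars are exact 95% counting intervals, with 1 library per genotype; those of *CSN7* lie apart (35.1 and 13.7 TPM), as do those of *CSN8*, *CSN2* and *CSN6*, while those of *CSN5* and *CSN3* overlap.

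The modules of the human complex, with subunits 1, 2, 3 and 8 in one and 4, 5, 6 and 7 in the other, did not part by size of change. The first module held log2 changes of 0.48, 0.98, −0.16 and 1.22 in the order of the subunits, and the other module held 0.38, 0.22, 0.92 and 1.30. Each module had a gene past 2-fold and a gene close to the control. This grouping was taken up after the values were seen.

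Because TPM is corrected for length, the levels of the subunits can be set side by side. The summed level of the 8 genes was 111 TPM in *bs* KD and 61.2 TPM in the control, a ratio of 1.81. The highest member exceeded the lowest by 9.07-fold in *bs* KD (*CSN7* over *CSN3*) and by 5.10-fold in the control (*CSN4* over *CSN8*). The transcripts of a complex with 1 copy of each subunit were thus unequal in both libraries. The lowest control value, of *CSN8*, rests on 30.1 estimated reads, with a counting interval of 2.06 to 4.36 TPM. Whether the spread differed between the libraries was not tested.

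In *bs* KD the order ran *CSN7*, *CSN4*, *CSN2*, *CSN6*, *CSN8*, *CSN1b*, *CSN5* and *CSN3*. The counting intervals of neighbours overlapped between *CSN2* and *CSN6* and along *CSN8*, *CSN1b* and *CSN5*, so these places are not told apart. In the control the order ran *CSN4*, *CSN7*, *CSN2*, *CSN6*, *CSN1b*, *CSN5*, *CSN3* and *CSN8*, and there the intervals overlapped between *CSN4* and *CSN7*, between *CSN2* and *CSN6*, and along *CSN1b*, *CSN5*, *CSN3* and *CSN8*. *CSN7* made 31.6% of the summed TPM in *bs* KD and 22.4% in the control, and *CSN4* 18.6% in *bs* KD and 25.5% in the control. *CSN3* made 3.49% in *bs* KD and 7.25% in the control. Among the 6384 detected genes *CSN7* ranked 1021st by level in *bs* KD and 1676th in the control, whereas *CSN3* ranked 3600th in *bs* KD and 3215th in the control.

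**Figure D2:**
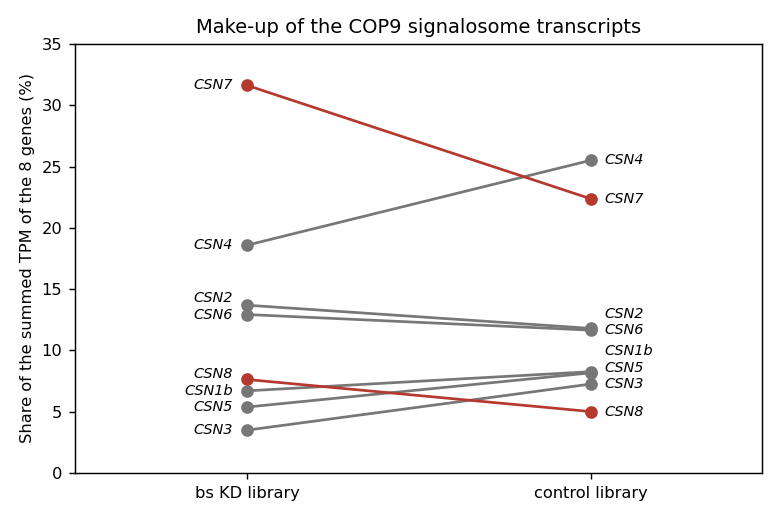
Share of each gene in the summed TPM of the 8 COP9 signalosome genes (vertical axis, percent) in the *bs* KD library (left) and the control library (right), with *CSN7* and *CSN8* in red. The line of *CSN7* (31.6% and 22.4%) crosses that of *CSN4* (18.6% and 25.5%), and the line of *CSN8* (7.62% and 5.01%) crosses those of *CSN1b*, *CSN5* and *CSN3*.

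The proteasome lid, the closest relative of the COP9 signalosome, differed far more between the libraries. All 9 lid genes were at least 2-fold higher in *bs* KD, against 9.38% of all detected genes. Their median was 2.29 on the log2 scale (2.16 after the shift was taken off). Their summed level was 884 TPM in *bs* KD and 173 TPM in the control, so lid transcripts exceeded those of the COP9 signalosome by 7.96-fold in *bs* KD and by 2.83-fold in the control. The lowest lid change, 2.02 for *Rpn6*, was above the highest COP9 change, 1.30 for *CSN7*, and the log2 changes of the complexes did not overlap. With 1 library per genotype this difference between the complexes was not tested.

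Each COP9 subunit has a lid subunit in the matching place, and every such pair had the larger change on the lid side. The gap was widest for *CSN3* and *Rpn3*, at 2.42 on the log2 scale, with *Rpn3* at 73.2 TPM in *bs* KD and 14.4 TPM in the control. For the proteases, *Rpn11*, the deubiquitinase of the lid, stood at 67.4 TPM in *bs* KD and 11.2 TPM in the control. It exceeded *CSN5* by 11.3-fold in *bs* KD and by 2.23-fold in the control. The gap was narrowest for *CSN8* and *Rpn12*, at 0.82. *Rpn12* stood at 146 TPM in *bs* KD and 34.8 TPM in the control. *CSN4* was the single member that exceeded its counterpart in the control (15.6 TPM against 9.99 TPM for *Rpn5*), and in *bs* KD it did not (20.6 TPM against 66.5 TPM). The order of the changes was not shared either: *Rpn5* and *Rpn11* had the largest changes of the 8 lid counterparts, and their partners *CSN4* and *CSN5* ranked 6th and 7th of 8.

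**Figure D3:**
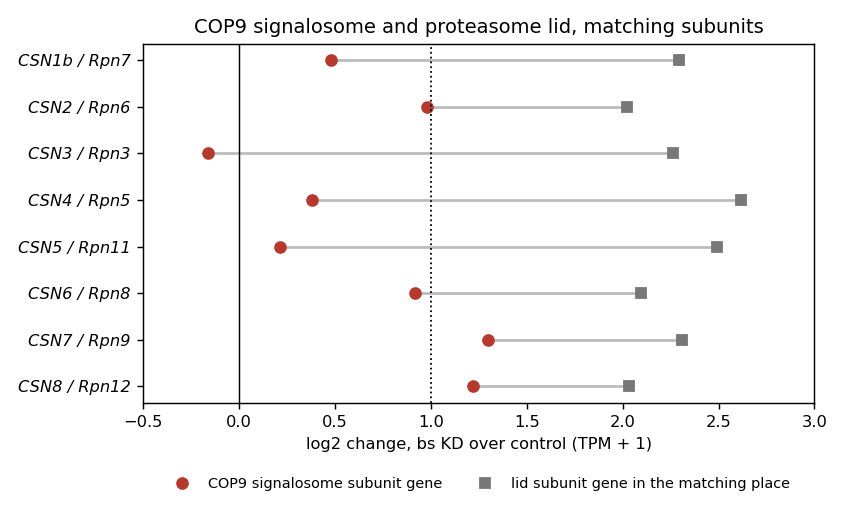
Log2 change of *bs* KD over control (horizontal axis, 1 TPM added to both) for each COP9 signalosome gene (red circle) and the lid gene in the matching place (grey square). The solid line marks no difference and the dotted line 2-fold; COP9 values run from −0.16 to 1.30 and lid values from 2.02 to 2.62.

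eIF3, the other relative, lay closer to all detected genes than the COP9 signalosome did, though most of its genes were higher in *bs* KD. Of its 13 detected genes 12 had a higher value, against 3520 of all 6384 detected genes. None of the 13 was higher by 2-fold or more, against 9.38% of all detected genes, and none lower, against 6.05%. The median log2 change was 0.32 (0.19 relative to the shift). The values ran from 0.00 for *eIF3m*, at 49.0 TPM in *bs* KD and 49.1 TPM in the control, to 0.80 for *eIF3k*, at 60.0 TPM in *bs* KD and 34.1 TPM in the control. The 8 detected subunits with a PCI or MPN domain, a subset taken after the values were seen, had a median of 0.15. The copies *eIF3d2*, *eIF3f2* and *eIF3g2* were at 0 TPM in both libraries, as was *CSN1a*, the second gene for subunit 1. The COP9 median thus lay between those of its relatives, nearer to that of eIF3 than to that of the lid.

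The list of NEDD8 cycle genes, most of which attach NEDD8 to cullins or trim it, had no member past 2-fold. For all detected genes the shares were 9.38% higher and 6.05% lower. Of 9 detected genes, 8 had a higher value in *bs* KD, against 3520 of all 6384 detected genes. Of the 8, *SCCRO3*, at 0.03 on the log2 scale, was below the shift. The median of the list was 0.41 on the log2 scale (0.28 with the shift taken off). *Nedd8* itself stood at 67.4 TPM in *bs* KD and 43.3 TPM in the control, the highest change of this list at 0.63. *APP-BP1*, for a subunit of the enzyme that activates NEDD8, stood at 2.09 TPM in *bs* KD and 3.93 TPM in the control, the lowest at −0.67. *Uba3*, for the other subunit of that enzyme, stood at 9.83 TPM in *bs* KD and 7.44 TPM in the control, so the genes of this heterodimer had opposite signs.

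Among cullins, the substrates of the COP9 signalosome, and their RING partners, 2 of 6 detected genes were past 2-fold in *bs* KD, and both encode RING subunits. *Roc1a* stood at 147 TPM in *bs* KD and 63.4 TPM in the control (log2 change 1.20), and *Roc2* at 17 TPM in *bs* KD and 6.72 TPM in the control (1.22). With the trend of change on gene length removed, their changes were 0.84 and 0.89. The 4 detected cullin genes had lower TPM in *bs* KD, as did 2864 of all 6384 detected genes. *Cul1* and *Cul2* kept this sign under every scaling, unit and length setting tried, and *Cul3* and *Cul4* did not. *Cul1* stood at 48.5 TPM in *bs* KD and 63.9 TPM in the control, with a ratio of 0.759 (0.724 to 0.797), and *Cul2* at 29.8 TPM in *bs* KD and 41.0 TPM in the control, with a ratio of 0.727 (0.680 to 0.777). *Cul3* and *Cul4* had ratios of 0.938 and 0.908, with intervals that include no difference, and the sign of both turned when the length trend was removed (0.15 and 0.11). *Cul3* also had a positive value, 0.16, when read counts scaled to library size, with no correction for length, replaced TPM. Of the 13 detected adaptors and substrate receptors none was past 2-fold in either direction, against 9.38% of all detected genes upward and 6.05% downward. Their median log2 change was 0.25. *EloC*, an adaptor of *Cul2* ligases, had the highest value (0.77, at 180 TPM in *bs* KD and 105 TPM in the control) and *dbo*, an adaptor of *Cul3* ligases, the lowest (−0.32, at 2.51 TPM in *bs* KD and 3.40 TPM in the control).

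**Figure D4:**
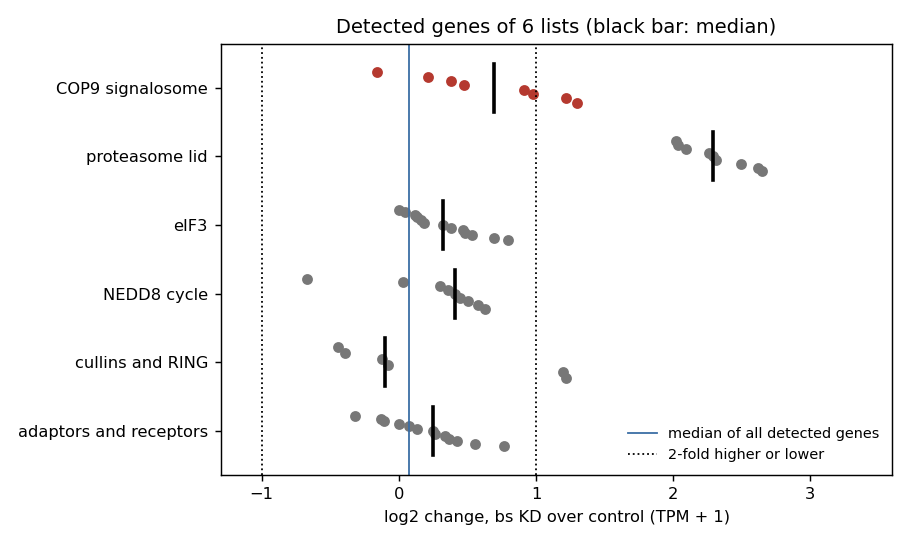
Log2 change of *bs* KD over control (horizontal axis, 1 TPM added to both) for every detected gene of 6 lists, 1 point per gene, with the COP9 signalosome in red and the median of each list as a black bar. The COP9 median of 0.70 lies between those of eIF3 (0.32) and the lid (2.29); the blue line marks the median of all detected genes (0.07) and the dotted lines 2-fold.

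None of the 8 genes lay more than 3 standard deviations from a line of *bs* KD on control TPM, fitted here to the detected genes within tiers of expression. This is modelled on a rule of the study, but the genes entered and the measure of distance may differ. The genes past it were not all those of the study, which lists *Rpn6* and *Rpn9* as altered. It also lists *Rpn5*, *Rpn12* and *Sem1*. *CSN4* and *CSN7* were in the moderate tier (10 to 100 TPM in the control) and the other 6 in the low tier. Their distances ran from −0.36 standard deviations for *CSN3* to 1.58 for *CSN2*, while 1.28% of detected genes lay above and 0.047% below the 3 standard deviations. *CSN7*, with the largest log2 change, was at a distance of 0.54 by this measure. Distances are in TPM, so within a tier a gene with a low level tends to lie nearer the line at a given fold. The lid genes *Rpn3*, *Rpn6*, *Rpn7*, *Rpn8*, *Rpn9* and *Rpn11* did not pass either, at 1.39 to 2.72 standard deviations. *Rpn5* (12.96), *Rpn12* (3.35) and *Sem1* (4.64) did. By fold size, 8.99% of the low tier and 12.5% of the moderate tier were higher by 2-fold or more.

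The genes were spread over the autosome arms, with 2 on each and none on the X chromosome. In Release 6 (BDGP6.54 annotation), *CSN7* lies on the plus strand of 2R from 8421033 to 8428577 and *CSN4* on the plus strand of 2R from 7972175 to 7974099. *CSN8* lies on the plus strand of 2L from 8364855 to 8365663 and *CSN2* on the minus strand of 2L from 8993818 to 8997379. *CSN5* and *CSN6* lie on the plus strand of 3R, from 16470099 to 16471406 and from 22580773 to 22582033, and *CSN1b* and *CSN3* on the minus strand of 3L, from 18903057 to 18904930 and from 20839096 to 20841576. Exons of *CSN2* share 971 bases with *CG17906* on the opposite strand, which had 0 TPM in *bs* KD and 0.0706 TPM in the control. Exons of *CSN6* share 6 bases with *Dph5*, also on the opposite strand, at 10.8 TPM in *bs* KD and 5.68 TPM in the control (log2 change 0.82). The sources used here do not say whether kit or counting kept strand.

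The 8 transcripts also differed in length, and the shorter ones tended to have the larger changes, with exceptions. The effective length that reads and TPM imply was 542 bases for *CSN8* and 1087 for *CSN7*, against 1580 for *CSN3* and 1703 for *CSN1b*. In the control it was 1095 for *CSN5* and 1104 for *CSN6*, close to *CSN7*, but their log2 changes were 0.22 and 0.92. *CSN4*, at 1371 bases in the control, had a change of 0.38, and the longer *CSN2*, at 1448, had 0.98. Across the 8 genes Spearman's rho between this length and the log2 change was −0.55, a description over genes that share the same 2 libraries. With the trend over all detected genes removed in 20 length classes, *CSN7* had a log2 change of 1.08 and *CSN8* one of 0.88. *CSN5* was then at 0.00, and 1 of 8 genes was past 2-fold, as were 7.14% of all detected genes.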

How the data were processed

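The authors quantified single-end reads of 100 bases with Salmon, on Galaxy, against the transcripts of *D. melanogaster* release 6.21, and deposited TPM, the estimated count of reads and gene lengths per gene and library. The versions of the tools are not given in the sources used here. The deposited table also holds the authors' DESeq2 comparison (fold change, standard error, p-values), which was not used. All columns of values per sample were used (0 left out).

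Log2 changes were taken from TPM after adding 1 to both libraries. Ratios of TPM have exact 95% binomial intervals from estimated counts rounded to whole numbers. With 1 library per genotype no test was made. Symbols were found for 13843 of 13931 genes; *Cul5* and *esg* were not matched. The members and lists were chosen with earlier results of these data known. Named genes are the members, *bs*, *Act88F*, *CSN1a*, *Nedd8*, the cullins, the lid counterparts, the ends of each pathway list and the nearest genes by level. Other genes named (*salm*, the tracheal markers, *Uba3*, *SCCRO3*, *Roc1a*, *grk*, *osk*, *bam* and the copies of eIF3 genes) and all genomic neighbours were chosen after their values were seen. Alternatives covered pseudocount, scaling, unit, length, detection, fold size and the line. Steps were tested on simulated data. Python 3.11.15 with numpy 2.4.6, pandas 2.3.3 and scipy 1.17.1 was used.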

Additional observations from a re-analysis of the deposited data

How the results depend on the processing

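*CSN7* was higher by 2-fold or more under every pseudocount, scaling, unit, length and detection setting tried, with log2 changes from 1.08 to 1.38. The count of COP9 genes past the size was 1 with 5 TPM added, 1 with the length trend removed and 1 when only genes with at least 10 TPM in a library were kept (4 of the 8 are then left). It was 3 with 0.1 TPM added and with read counts scaled to library size in place of TPM, 4 with no TPM added (chosen after seeing the data), 4 at 1.5-fold and 0 at 3-fold. At 1.5-fold the counts were 2 for eIF3, 1 for the NEDD8 genes and 1 for adaptors and receptors. For cullins and RING subunits the count was 1 with 5 TPM added, 0 with the length trend removed and 0 at 3-fold, and their median ran from −0.23 to 0.40. The COP9 median ran from 0.49 to 0.95 and *CSN3* from −0.28 to −0.09, on 1 side of 0 throughout. Of all detected genes 599 were higher by 2-fold or more, against 949 with no TPM added, 909 with 0.1 TPM added and 262 with 5 TPM added. The number was 456 with the length trend removed, 681 with scaled read counts, 1358 at 1.5-fold and 189 at 3-fold. It was 368 among the smaller set of genes with at least 10 TPM in a library. The medians of eIF3 (0.15 to 0.42), the NEDD8 genes (0.26 to 0.50) and adaptors and receptors (0.11 to 0.31) stayed above 0. No COP9 gene passed the line rule under any of its alternatives, including 2 standard deviations. No paired analysis was possible because each genotype has 1 library. Depth limits *CSN8* and *CSN5* most, with 30.1 and 99.3 estimated reads in the control.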

Other observations

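Of the 8 COP9 signalosome genes, 6 start within 500 bases of a gene on the opposite strand that points away from them, against 36.7% of all detected genes; this window was chosen after the neighbours were seen. *CSN2* starts 226 bases from *CG18661*, which stood at 13.5 TPM in *bs* KD and 4.11 TPM in the control, so that the log2 changes of this pair were 0.98 and 1.51. *CSN1b* starts 442 bases from *Prp6*, a splicing factor gene, and these had changes of 0.48 and 0.44. *Prp6* stood at only 1.31 TPM in *bs* KD and 0.71 TPM in the control, where adding 1 TPM understates its change. *CSN3* starts 411 bases from *CG11456*, with changes of −0.16 and −0.18. *CG11456* was also low, at 1.48 TPM in *bs* KD and 1.80 TPM in the control. The other pairs were unlike: *CSN8* had 1.22 where *RpS13*, a ribosomal protein gene that starts 193 bases away, had 0.27, and *CSN4* had 0.38 where *CG8726*, 172 bases away, had −0.55. The partner of *CSN5*, *CG42232*, was below 1 TPM in both libraries. Over the 932 such pairs with both genes detected, Spearman's rho of the log2 changes was 0.03, a description across genes of the same 2 libraries.

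The effective lengths in the deposited table did not match its TPM and reads for genes with several transcripts. TPM times effective length over reads should be the same for every gene of a library, and it was within 1% of its top value for 33.8% of 4127 genes with over 100 reads in *bs* KD and 32.3% of 4015 in the control. For *CSN2*, with 4 annotated transcripts, the listed effective length was 355 bases in *bs* KD and 366 in the control, where reads and TPM imply 1417 and 1448. For *CSN5* the listed values were 548.5 and 630.2 bases, and those implied were 1097 and 1095, so the listed drop in length in *bs* KD had no counterpart in the implied one. The 5 COP9 genes with 1 annotated transcript matched.

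The genes whose levels in the 2 libraries lay nearest to the mean of the 8 COP9 genes, by distance in log2 TPM plus 1, were *CG14135*, *Tango9*, *MrgBP*, *spn-F* and *Bhmt*, with changes from 0.62 to 0.66. With 2 libraries this likeness says no more than that their levels are close.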
